A study of Arabidopsis thaliana with 9 samples.

Results

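A set of genes that act at the start of plant pattern-triggered immunity was followed in rosettes that overexpress PP2-A5 or carry a mutant of it. The genes were FLS2, EFR, LYK5, CERK1, PEPR1, SOBIR1, BAK1, BIK1, RBOHD and FRK1, and they are 10 of the 22155 loci in the deposited table. They were chosen by name, with earlier results of these data known. The libraries came from PP2-A5oe, a line that overexpresses PP2-A5, from pp2-a5, a mutant of that gene, and from Col-0, the wild type. Each group had 3 biological replicates, and all plants carried the label of a control treatment, with no pattern molecule named. The source is labelled rosette, while the extraction text speaks of seedlings, at 3 weeks of age. The labels give neither the promoter that drives the transgene nor the number of independent lines, so each genotype stands for what may be a single line.

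Pattern receptors are proteins of the plasma membrane that bind microbial molecules, or peptides released from damaged plant cells. FLS2 binds bacterial flagellin, EFR binds the bacterial elongation factor EF-Tu, LYK5 and CERK1 together perceive chitin from fungal walls, and PEPR1 binds the plant's own Pep peptides. Leucine-rich repeat receptors act with co-receptor kinases such as BAK1, or, for receptor-like proteins, SOBIR1. BIK1, a cytoplasmic kinase bound to these complexes, phosphorylates the NADPH oxidase RBOHD, which makes the burst of reactive oxygen, and FRK1 is a kinase gene widely used as an early transcriptional readout. WRKY transcription factors, several of which are induced by pattern signalling, bind a promoter motif called the W-box.

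In both lines the transcripts of LYK5, SOBIR1 and RBOHD, and at a much lower level EFR, were higher than in Col-0. SOBIR1 and LYK5 more than doubled in PP2-A5oe, and SOBIR1 about doubled in pp2-a5. FRK1 differed from these genes in PP2-A5oe, where it did not pass the test against Col-0. It was higher than Col-0 in pp2-a5, a result lost without some single libraries. FRK1 was lower in PP2-A5oe than in pp2-a5. FLS2 and CERK1 passed the test against Col-0 in neither line, and BAK1 had almost no counts in any library.

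The stretches upstream of 3 of these genes are printed because the genes differed in pattern. RBOHD and LYK5 were higher than Col-0 in both lines. Of this pair, only LYK5 was called higher in PP2-A5oe than in pp2-a5. FRK1 was called higher than Col-0 in pp2-a5 only, and it was lower in PP2-A5oe than in pp2-a5. Each holds the 250 bases before the annotated gene start, 5′ to 3′ on the gene's strand, read from the RefSeq TAIR10.1 assembly. Capitals mark a W-box, searched as TTGACC or TTGACT on both strands. RBOHD is read from chr5:19396791-19397040 on the plus strand, LYK5 from chr2:14222255-14222504 on the minus strand and FRK1 from chr2:8329945-8330194 on the minus strand.
RBOHD: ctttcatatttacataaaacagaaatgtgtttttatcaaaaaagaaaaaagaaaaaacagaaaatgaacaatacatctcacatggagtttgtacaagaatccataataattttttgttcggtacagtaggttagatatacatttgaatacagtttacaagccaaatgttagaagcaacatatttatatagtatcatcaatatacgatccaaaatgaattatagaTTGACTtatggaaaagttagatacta
LYK5: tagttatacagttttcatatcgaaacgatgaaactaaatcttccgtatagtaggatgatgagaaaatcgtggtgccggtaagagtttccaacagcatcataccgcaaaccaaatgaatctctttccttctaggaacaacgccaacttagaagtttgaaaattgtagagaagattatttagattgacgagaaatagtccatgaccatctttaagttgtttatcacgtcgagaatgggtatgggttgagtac
FRK1: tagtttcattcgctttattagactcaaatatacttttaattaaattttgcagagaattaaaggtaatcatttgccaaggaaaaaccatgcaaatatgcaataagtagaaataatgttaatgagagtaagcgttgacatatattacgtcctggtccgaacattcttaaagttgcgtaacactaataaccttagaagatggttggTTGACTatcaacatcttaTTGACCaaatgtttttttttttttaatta
FRK1 held 2 W-boxes, which began 47 and 29 bases before the start. RBOHD held 1 at 26 bases. LYK5, FLS2 and EFR held none in this window. Of the 9 genes whose upstream stretch was examined, all but SOBIR1, 6 had a W-box before the start, against 28.4% of 27443 annotated genes in the same window. With the 50 bases after the start included, 7 of the 9 genes and 32.4% of all genes had one. Of the other motifs searched on both strands, the G-box CACGTG occurred in PEPR1 alone, against 6.49% of all genes, and the rapid stress response element CGCGTT in none of the 9, against 2.59%. A match is a description and not a bound site. The genes with and without a W-box both included genes that were higher in the lines.

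Total counts were 5703364 to 6182508 per library in PP2-A5oe, 5956315 to 6191397 in pp2-a5 and 5408847 to 6196722 in Col-0. Levels are given as CPM, counts relative to the library total after TMM scaling, and differences as log2 fold changes with their standard error (SE) from 1 edgeR quasi-likelihood fit over 13975 loci. A gene was called where its adjusted p over all these loci (Benjamini-Hochberg) was under 0.05. The median log2 difference over all loci was -0.02 in PP2-A5oe and -0.01 in pp2-a5, each against Col-0. Both comparisons use the same Col-0 libraries, so agreement between them is not independent. The mitochondrial share of the counts was 0.178% in Col-0 replicate 3 and 0.132% in PP2-A5oe replicate 2, above 0.0741% to 0.0878% in the other libraries. The leaf gene CAB1, which encodes a light-harvesting protein, held 16294 to 18610 CPM in PP2-A5oe, 16301 to 16865 in pp2-a5 and 20680 to 23515 in Col-0. It is 1 of 5 leaf markers listed. The other 4, RBCS1A, CA1, RCA and GLDP1, had no row in the table used here and could not be analysed. The annotation gives each of these 2 to 4 transcripts, and CAB1 1. In whole rosettes a change in RNA per cell and a change in the share of cells that express a gene cannot be told apart.

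Of the 9 genes with enough counts to test, 6 rose in PP2-A5oe and none fell, with a median log2 difference of 0.40. All loci gave 14.5% called higher and 10.5% called lower in this comparison. In pp2-a5, 5 of 9 rose and none fell, with a median of 0.54, where 12.3% of all loci were called higher and 8.47% lower. LYK5, SOBIR1, RBOHD and EFR were called in both lines, BIK1 and PEPR1 in PP2-A5oe, and FRK1 in pp2-a5. Under upper-quartile scaling the balance of all calls in PP2-A5oe was 1769 higher and 2069 lower, against 2027 higher and 1469 lower under TMM, while 5 of the 9 genes were still called higher. In pp2-a5 it was 1536 higher and 1553 lower, against 1719 higher and 1183 lower under TMM. Values in PP2-A5oe did not overlap those in Col-0, on the higher side, for 6 of the 9 genes, which held for 19.7% of all loci. In pp2-a5 this was also 6 of 9, against 18.5% of all loci. Because the genes were chosen with earlier results of these data known, the shares of all loci give a scale and not a test.

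**Figure D1:**
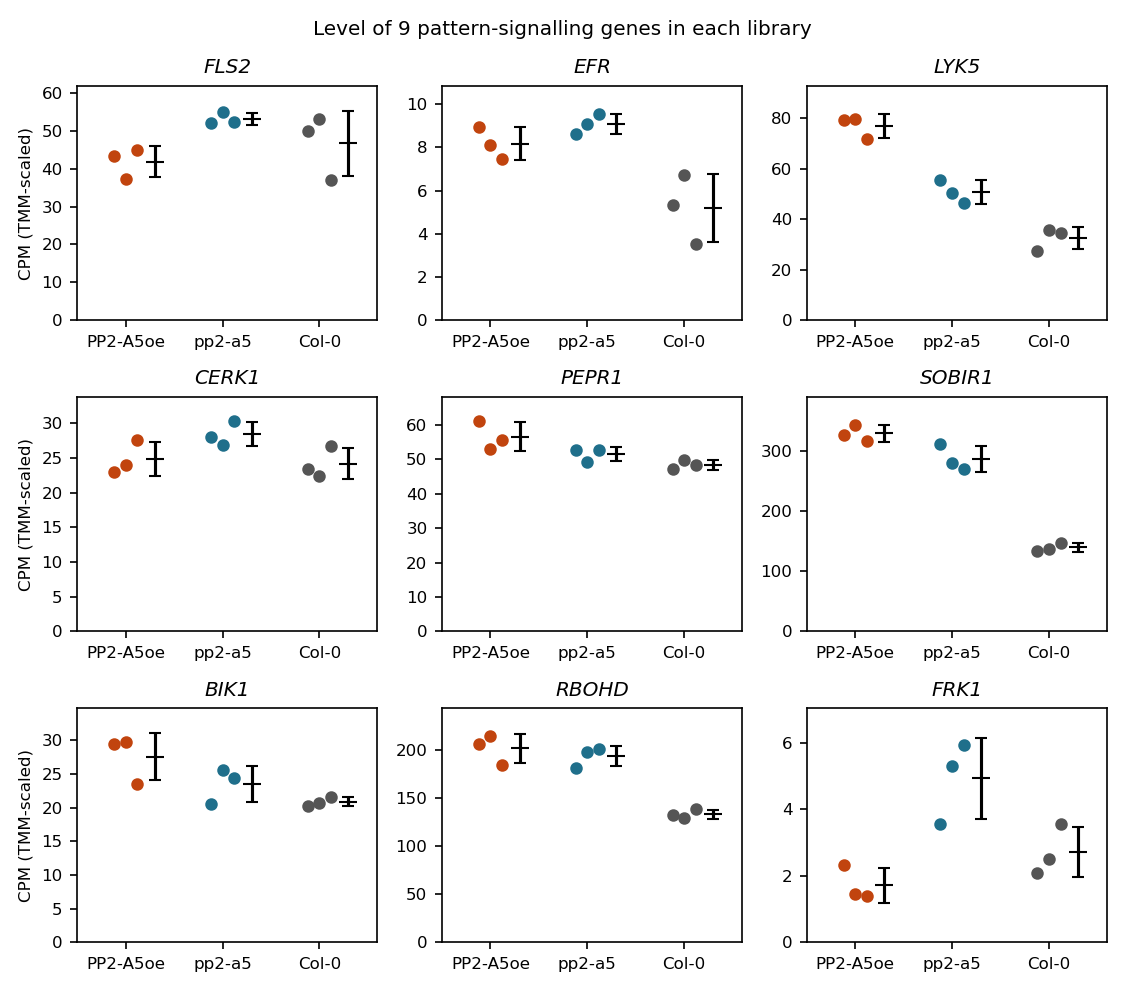
Level of the 9 genes with enough counts to test, in CPM on axes that start at 0, with a point for each library of PP2-A5oe (orange), pp2-a5 (blue) and Col-0 (grey). Black marks give the mean and SD of 3 libraries. The SOBIR1 points lie between 316 and 343 CPM in PP2-A5oe, between 269 and 311 in pp2-a5 and between 134 and 147 in Col-0.

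Among the 5 receptors, LYK5 (AT2G33580, chr2:14219481-14222254, minus strand), the high-affinity chitin receptor, had the largest log2 difference of PP2-A5oe from Col-0. It had 79.4, 79.9 and 71.6 CPM in PP2-A5oe, 55.6, 50.6 and 46.3 in pp2-a5, and 27.4, 35.7 and 34.5 CPM in Col-0. The 3 groups were separate, with PP2-A5oe highest and Col-0 lowest. The log2 difference from Col-0 was 1.24 ± 0.10 (SE, adjusted p = 1.63e-12) in PP2-A5oe, a 2.37-fold higher level. It was 0.65 ± 0.10 (adjusted p = 5.94e-06) in pp2-a5, a 1.56-fold higher level. LYK5 was also higher in PP2-A5oe than in pp2-a5, by 0.60 ± 0.09 on the log2 scale (adjusted p = 5.44e-06).

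CERK1 (AT3G21630, chr3:7615357-7618671, minus strand), the kinase that signals with LYK5 on chitin, did not show that pattern. Its levels were 23.0, 24.0 and 27.7 CPM in PP2-A5oe, 28.1, 26.9 and 30.3 in pp2-a5, and 23.4, 22.4 and 26.7 CPM in Col-0. The log2 difference of PP2-A5oe from Col-0 was 0.05, with a 95% interval of -0.18 to 0.27 (adjusted p = 0.822). All pp2-a5 values lay above those of Col-0, by 0.24 on the log2 scale with an interval of 0.02 to 0.46 before adjustment and an adjusted p of 0.121. Without Col-0 replicate 3 this last difference was 0.31 and passed the test (adjusted p = 0.0448).

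FLS2 (AT5G46330, chr5:18791575-18795908, plus strand), the flagellin receptor, passed the test only between the lines. It had 43.3, 37.3 and 44.95 CPM in PP2-A5oe, 51.9, 54.9 and 52.2 in pp2-a5, and 49.98, 53.1 and 37.0 CPM in Col-0. The wide spread in Col-0 came from replicate 3, the library with the highest mitochondrial share, and the part of that share in the result was not tested. The log2 difference from Col-0 was -0.16 in PP2-A5oe (95% interval -0.37 to 0.05, adjusted p = 0.276) and 0.18 in pp2-a5 (interval -0.03 to 0.38, adjusted p = 0.235). Without Col-0 replicate 3, FLS2 was called lower in PP2-A5oe, at -0.31 (adjusted p = 0.0114). FLS2 was lower in PP2-A5oe than in pp2-a5 by a log2 difference of -0.34 ± 0.10 (adjusted p = 0.0218), with no overlap of values. That call was lost without PP2-A5oe replicate 1 (adjusted p = 0.0505) or 2 (0.172), without pp2-a5 replicate 2 (0.0951) or 3 (0.054), and in DESeq2 (0.0697). FLS2 shares 172 bases with RWA1 on the opposite strand, which had 201 to 313 counts per library and was called in none of the comparisons.

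EFR (AT5G20480, chr5:6921509-6925901, plus strand), the receptor of bacterial EF-Tu, was rare and rose in both lines. Its levels were 8.95, 8.11 and 7.43 CPM in PP2-A5oe, 8.60, 9.09 and 9.54 in pp2-a5, and 5.32, 6.70 and 3.55 CPM in Col-0. These rest on 43 to 54 counts per PP2-A5oe library, 53 to 61 per pp2-a5 library and 19 to 40 per Col-0 library. Every library of either line exceeded every Col-0 library. The log2 difference was 0.64 ± 0.20 (adjusted p = 0.0186) in PP2-A5oe and 0.79 ± 0.20 (adjusted p = 0.00322) in pp2-a5, and -0.15 between PP2-A5oe and pp2-a5, with an interval of -0.52 to 0.22. The call in PP2-A5oe was lost without Col-0 replicate 1 (adjusted p = 0.0501) or 3 (0.122), without PP2-A5oe replicate 1 (0.0841) and in DESeq2 (0.0642).

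PEPR1 (AT1G73080, chr1:27484240-27488204, plus strand), the receptor of Pep danger peptides, changed little. It had 61.2, 52.8 and 55.5 CPM in PP2-A5oe, 52.6, 49.1 and 52.7 in pp2-a5, and 47.1, 49.7 and 48.2 CPM in Col-0. The rise in PP2-A5oe, 0.23 ± 0.08 on the log2 scale (adjusted p = 0.0454), had the largest adjusted p of the calls against Col-0. It was lost on removal of any 1 of 7 libraries, namely each Col-0 library, PP2-A5oe replicates 1 and 3 and pp2-a5 replicates 2 and 3, with adjusted p between 0.0517 and 0.221. In pp2-a5 the difference was 0.09, with an interval of -0.08 to 0.26. Of its transcript's 50-base words, 2.51% occur elsewhere in the genome, whereas the other 9 genes had none that do.

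SOBIR1 (AT2G31880, chr2:13554870-13556977, plus strand), the adaptor kinase of receptor-like proteins, was the most abundant of the 10 genes and rose in both lines. Its levels were 326, 343 and 316 CPM in PP2-A5oe, 311, 279 and 269 in pp2-a5, and 134, 137 and 147 CPM in Col-0. Either line stood at about double the wild type, with no overlap. The log2 difference was 1.24 ± 0.07 (adjusted p = 2.58e-16, 2.36-fold) in PP2-A5oe and 1.04 ± 0.07 (adjusted p = 5.71e-14, 2.06-fold) in pp2-a5. The end of SOBIR1 overlaps 478 bases of RAP on the opposite strand, and the strand setting of the counting is not given in the sources used here. RAP, at 357 to 596 counts per library, fell in both lines, with log2 differences of -0.43 (adjusted p = 0.00135) in PP2-A5oe and -0.35 (adjusted p = 0.00893) in pp2-a5.

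SOBIR1 was higher in PP2-A5oe than in pp2-a5 by a log2 difference of 0.20 ± 0.07 (adjusted p = 0.043). This call was lost without PP2-A5oe replicate 1 (adjusted p = 0.0993) or 2 (0.221), without pp2-a5 replicate 2 (0.173) or 3 (0.233), without Col-0 replicate 1 (0.0558), under upper-quartile scaling (0.0625) and in DESeq2 (0.0608).

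BAK1 (AT4G33430, chr4:16086311-16090832, minus strand), the shared co-receptor of FLS2, EFR and PEPR1, had 0 counts in each library of PP2-A5oe and Col-0, and 1, 0 and 0 counts in pp2-a5. It was not tested. A count of 0 allows a level of up to 3 counts, or 0.484 to 0.555 CPM in a library, which covers counting error only. BAK1 has 2 annotated transcripts, as do FLS2 and EFR, while the other 7 genes have 1. Among the 10 genes and the wider set of pathway genes with a row in the table, 8 of 33 with 2 or more transcripts had under 10 counts over all libraries, against 0 of 62 with 1 transcript. The median total count was 403 for those with 2 or more transcripts and 1334 for those with 1. Over all annotated protein-coding genes with a row, the median total was 580 counts with 1 transcript, 206 with 2 and 71 with 3 or more. How reads shared by several transcripts were counted is not given in the sources used here, and its part in the BAK1 value was not tested. The levels of BAK1, FLS2 and EFR are therefore less certain than those of the other genes.

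**Figure D2:**
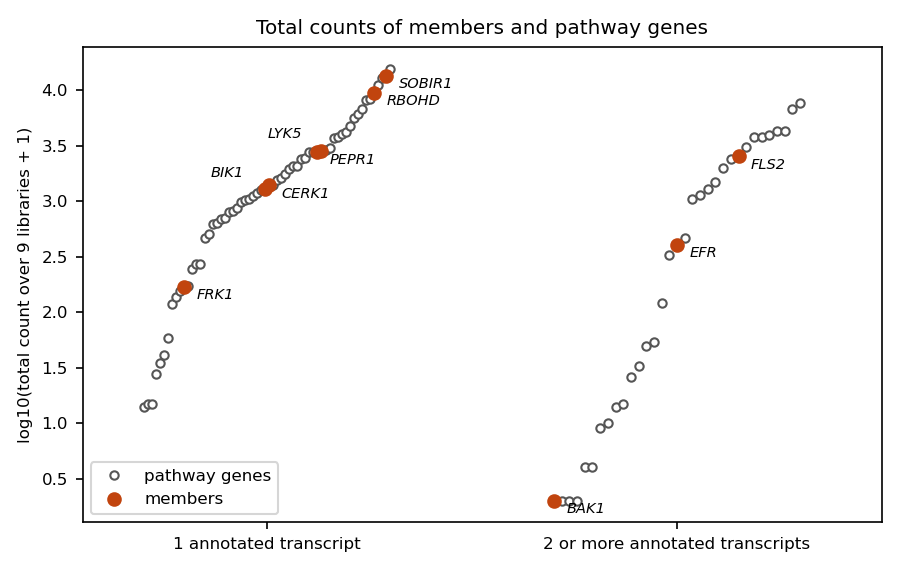
Total count over the 9 libraries, as log10 of the count plus 1, of the 10 genes (filled, labelled) and of the pathway genes with a row in the table (open), split by whether the annotation gives 1 transcript or 2 or more. Within each class genes run from low to high along the x axis, and BAK1 stands with 1 count at the low end of the second class.

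BIK1 (AT2G39660, chr2:16531527-16533986, plus strand), the kinase that carries the signal from the receptor complex, rose modestly in PP2-A5oe. It had 29.5, 29.7 and 23.5 CPM in PP2-A5oe, 20.6, 25.6 and 24.4 in pp2-a5, and 20.3, 20.8 and 21.7 CPM in Col-0. PP2-A5oe lay wholly above Col-0, while pp2-a5 overlapped both. The log2 difference from Col-0 was 0.40 ± 0.12 (adjusted p = 0.00994) in PP2-A5oe and 0.17 (interval -0.07 to 0.41, adjusted p = 0.348) in pp2-a5. The difference between PP2-A5oe and pp2-a5 did not pass the test (0.23, adjusted p = 0.225). The call in PP2-A5oe was lost without PP2-A5oe replicate 1 (adjusted p = 0.0577) or 2 (0.0613).

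RBOHD (AT5G47910, chr5:19397041-19402061, plus strand), the oxidase of the immune oxidative burst, rose by a like amount in both lines. Its levels were 207, 215 and 185 CPM in PP2-A5oe, 182, 199 and 201 in pp2-a5, and 132, 130 and 139 CPM in Col-0. The lines overlapped each other and both lay above Col-0. The log2 difference from Col-0 was 0.60 ± 0.07 (adjusted p = 1.74e-08, 1.51-fold) in PP2-A5oe and 0.54 ± 0.07 (adjusted p = 2.09e-07, 1.45-fold) in pp2-a5. Between PP2-A5oe and pp2-a5 it was 0.06, with an interval of -0.08 to 0.20.

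FRK1 (AT2G19190, chr2:8326049-8329944, minus strand), the early readout gene, was the lowest of the 9 tested genes and split the lines. It had 2.32, 1.44 and 1.38 CPM in PP2-A5oe, 3.57, 5.29 and 5.94 in pp2-a5, and 2.10, 2.51 and 3.55 CPM in Col-0. The counts behind these were 14, 8 and 8 in PP2-A5oe, 22, 32 and 38 in pp2-a5, and 13, 15 and 19 in Col-0. PP2-A5oe lay below pp2-a5 with no overlap, and the log2 difference was -1.51 ± 0.30 (adjusted p = 0.000422), or 0.352 times the level. Against Col-0, FRK1 was higher in pp2-a5 by 0.88 ± 0.27 (adjusted p = 0.0195). In PP2-A5oe it did not pass (-0.63, interval -1.34 to 0.08, adjusted p = 0.201). FRK1 shares 175 bases with AT2G19180 on the opposite strand, which had 188 to 236 counts per library and was called in none of the comparisons. The rise of FRK1 in pp2-a5 was lost without Col-0 replicate 1 (adjusted p = 0.119) or 2 (0.0622), without pp2-a5 replicate 2 (0.0716) or 3 (0.125), and in DESeq2 (0.103). The difference between the lines stayed past the threshold in all 18 alternatives in which FRK1 was tested, with log2 values between -1.79 and -1.35.

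**Figure D3:**
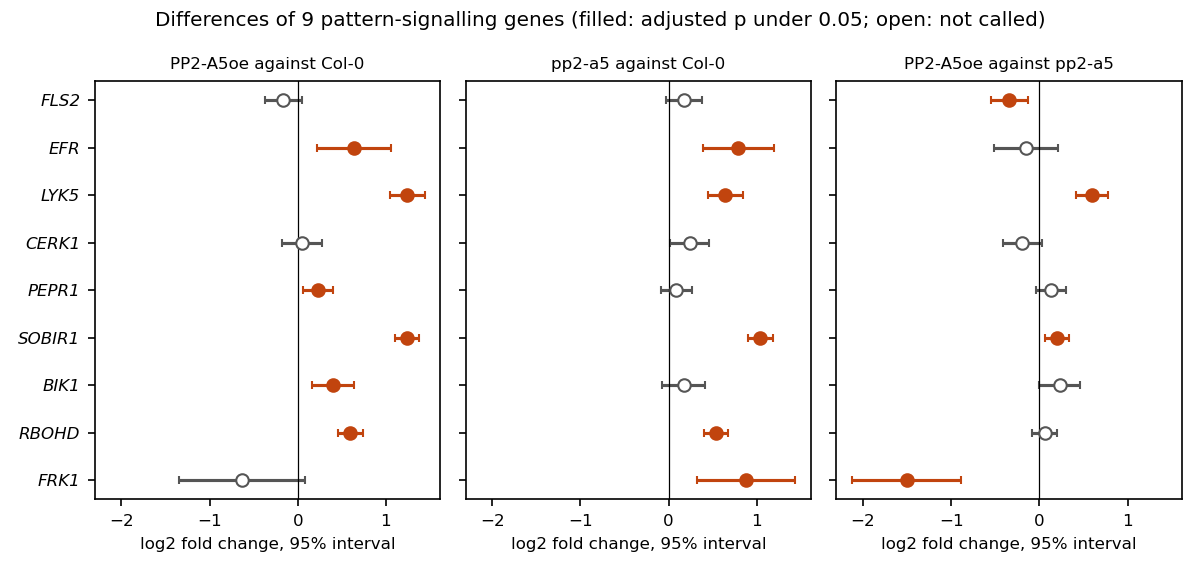
Log2 fold change with its 95% interval for the 9 tested genes in PP2-A5oe against Col-0 (left), pp2-a5 against Col-0 (middle) and PP2-A5oe against pp2-a5 (right). Filled points passed an adjusted p of 0.05. LYK5 and SOBIR1 stand at 1.24 in the left panel, and FRK1 at -1.51 in the right panel.

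Compared directly, PP2-A5oe was higher than pp2-a5 for 2 of the 9 genes, LYK5 and SOBIR1, and lower for 2, FLS2 and FRK1. In this comparison 7.21% of all loci were called higher and 5.45% lower. LYK5 and FRK1 passed in every alternative run on them, while the SOBIR1 and FLS2 calls depended on single libraries, as given above.

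Set per kilobase of transcript, so that genes can be ranked, SOBIR1 led in all 3 groups. It stood at 158 ± 6.50 CPM per kb in PP2-A5oe, 137 ± 10.4 in pp2-a5 and 66.9 ± 3.32 in Col-0 (SD, n = 3 each). RBOHD came second, at 56.1 ± 4.29 CPM per kb in PP2-A5oe, 53.8 ± 2.94 in pp2-a5 and 37.1 ± 1.31 in Col-0. LYK5 came next and stood clear of the others in both lines, with 27.7 ± 1.68 CPM per kb in PP2-A5oe, against 18.3 ± 1.69 in pp2-a5. In Col-0 LYK5, at 11.7 ± 1.61 CPM per kb, fell among PEPR1 (12.6 ± 0.347), CERK1 (11.1 ± 1.03), FLS2 (11.0 ± 2.01) and BIK1 (10.5 ± 0.345). Neighbours in that Col-0 run differed by less than the SD of the more variable one. The same held in pp2-a5 for PEPR1 (13.4 ± 0.530), CERK1 (13.0 ± 0.789), FLS2 (12.5 ± 0.387) and BIK1 (11.8 ± 1.32), and in PP2-A5oe for PEPR1 (14.8 ± 1.11) and BIK1 (13.9 ± 1.77). In PP2-A5oe, CERK1 (11.4 ± 1.12) and FLS2 (9.84 ± 0.944) lay below these by more than their spread. EFR and FRK1 were lowest, at 1.90 ± 0.176 and 0.635 ± 0.194 CPM per kb in PP2-A5oe, 2.11 ± 0.109 and 1.83 ± 0.454 in pp2-a5, and 1.21 ± 0.367 and 1.01 ± 0.277 in Col-0. EFR and FRK1 thus did not differ beyond their spread in pp2-a5 and in Col-0, but did in PP2-A5oe.

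Over the 9 libraries SOBIR1 and RBOHD had a Pearson correlation of 0.96 on the log2 scale, SOBIR1 and LYK5 one of 0.93, and LYK5 and RBOHD one of 0.86. FRK1 ran apart from these, at -0.33 with LYK5 and 0.07 with RBOHD. FLS2 and BIK1 gave -0.41. These values describe 9 libraries in 3 groups that share a platform and differ mainly by group. Of all tested loci, the most like SOBIR1 was PUP10 (0.99), the most like LYK5 was ERF11 (0.99), and the most like RBOHD was AT5G39670 (0.99). BGLU44 was most like FRK1 (0.98), ABCG8 most like EFR (0.98), and MPK4 was second for CERK1 (0.94).

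The rest of the pathway was read from 9 lists of 94 genes, of which 65 were tested. In PP2-A5oe 31 rose and 2 fell, with a median log2 difference of 0.37, and in pp2-a5 33 rose and 1 fell, with a median of 0.29. The shares over all loci were 14.5% higher and 10.5% lower in PP2-A5oe, and 12.3% higher and 8.47% lower in pp2-a5. The lists too were chosen with earlier results of these data known, so these shares are no test of them. Differences of these genes are log2 fold changes ± SE against Col-0 unless another group is named. Output genes showed the largest medians, and peptide precursors and other oxidases gave no call in either line. For several genes named here the annotation gives 2 or more transcripts (SD1-29, AT4G08850, LYM1, AT5G35580, MKK5, CPK6, XLG2, AT1G11960, CNGC20 and RALF23) or an overlapping gene (LYM1, SERK1, RLP23, PUB23, MPK3, MKK4, MKK5, PROPEP6, WRKY33 and WRKY53), so their values are less certain.

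**Figure D4:**
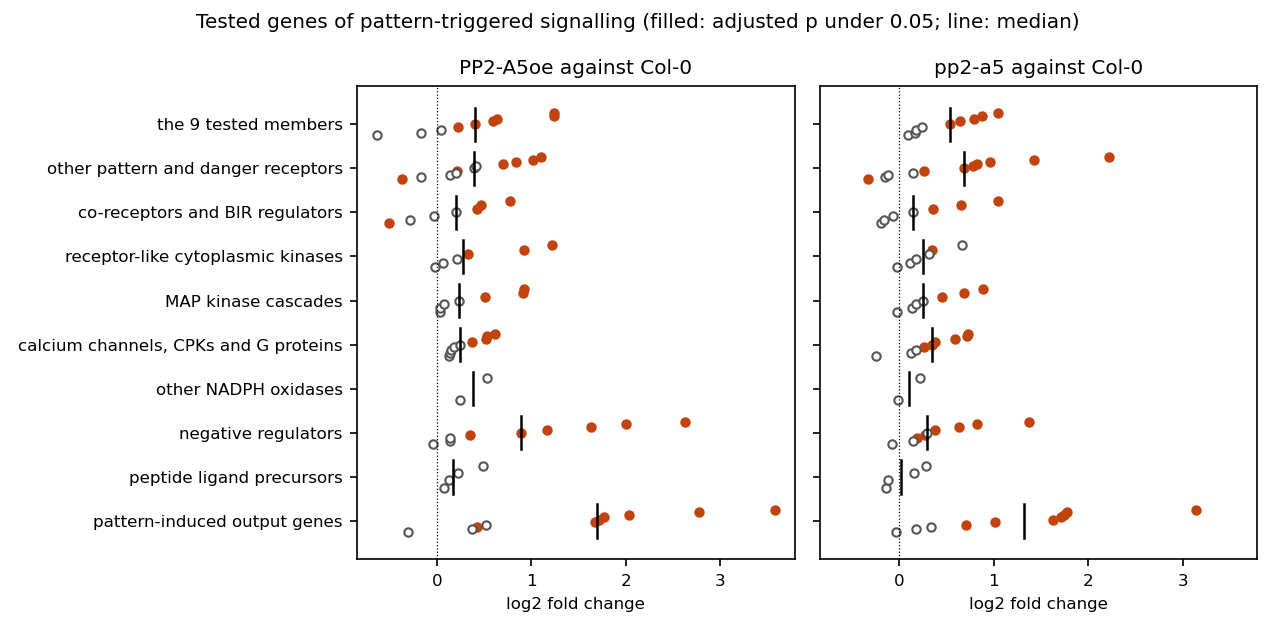
Log2 fold change of each tested gene in the 9 named genes and the 9 pathway lists, for PP2-A5oe against Col-0 (left) and pp2-a5 against Col-0 (right). Filled points passed an adjusted p of 0.05 and black bars give medians. The output genes have medians of 1.69 in the left panel and 1.32 in the right panel.

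Among 11 other pattern and danger receptors, 5 rose and 1 fell in PP2-A5oe (median 0.40), and 7 rose and 1 fell in pp2-a5 (median 0.68). RLP23, a receptor-like protein that detects microbial nlp20 peptides and works with SOBIR1, led in pp2-a5. It had 50.7, 49.2 and 61.9 CPM in PP2-A5oe, 123, 127 and 121 in pp2-a5, and 31.9, 22.3 and 25.2 CPM in Col-0. The 3 groups were separate, in an order unlike that of SOBIR1. The log2 difference from Col-0 was 1.02 ± 0.11 (adjusted p = 4.05e-09) in PP2-A5oe and 2.22 ± 0.10 (adjusted p = 8.33e-18) in pp2-a5. PP2-A5oe was lower than pp2-a5 by a log2 difference of -1.19 ± 0.09 (adjusted p = 5.71e-12). SD1-29, the lectin receptor kinase for bacterial fatty acid metabolites, rose by 0.84 in PP2-A5oe and 0.82 in pp2-a5, and AT4G08850 by 0.70 in PP2-A5oe and 0.96 in pp2-a5. LYM1, a receptor of bacterial peptidoglycan named after its values were seen, fell in PP2-A5oe (-0.37) and in pp2-a5 (-0.33).

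Of 7 co-receptors and their regulators, 3 rose and 1 fell in PP2-A5oe, and 3 rose in pp2-a5. SERK4, a co-receptor close to BAK1, rose by 0.77 ± 0.09 in PP2-A5oe (adjusted p = 3.69e-08), and it rose by 1.05 ± 0.09 in pp2-a5 (adjusted p = 3.91e-11). BIR1 and BIR2, receptor-like kinases that hold BAK1 back, rose by 0.47 and 0.42 in PP2-A5oe, and by 0.65 and 0.35 in pp2-a5. SERK1, named after its values were seen, fell in PP2-A5oe (-0.51, adjusted p = 0.00667) and was at -0.16 in pp2-a5 (adjusted p = 0.438).

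Of 6 receptor-like cytoplasmic kinases other than BIK1, 3 rose in PP2-A5oe and 1 in pp2-a5, where 1 of 6 is near the 12.3% of all loci called higher. The count in pp2-a5 was 2 without Col-0 replicate 3 or without pp2-a5 replicate 2. RIPK, which also acts on RBOHD, had a mean of 135 ± 1.53 CPM in PP2-A5oe, 73.6 ± 3.29 CPM in pp2-a5 and 58.0 ± 1.83 CPM in Col-0 (SD, n = 3 each). It rose by 1.22 ± 0.07 in PP2-A5oe (adjusted p = 2.42e-15), and it rose by 0.34 ± 0.08 in pp2-a5 (adjusted p = 0.000883). PBS1, the kinase cleaved by the bacterial protease AvrPphB, rose by 0.33 in PP2-A5oe (adjusted p = 0.0023), as did AT5G35580 by 0.92 (adjusted p = 0.0458). AT5G35580 rests on few counts per library, 14 to 18 in PP2-A5oe, 11 to 19 in pp2-a5 and 7 to 11 in Col-0. It passed the count filter only through PP2-A5oe and pp2-a5, so the filter favoured its rise, which is 1 of the 3 counted in PP2-A5oe.

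Among 9 negative regulators 6 rose in each line and none fell, with medians of 0.89 in PP2-A5oe and 0.29 in pp2-a5. The count in pp2-a5 was 3 without Col-0 replicate 1 or without pp2-a5 replicate 2. AP2C1, a phosphatase that inactivates MAP kinases, had 80.9, 75.3 and 87.0 CPM in PP2-A5oe, 15.6, 15.7 and 16.9 in pp2-a5, and 13.1, 15.2 and 10.8 CPM in Col-0. PP2-A5oe stood far above both others, by 2.63 ± 0.11 against Col-0 (adjusted p = 4.98e-20) and by 2.33 ± 0.10 against pp2-a5 (adjusted p = 6.18e-19). In pp2-a5 AP2C1 was at 0.29 against Col-0 (adjusted p = 0.125). The ubiquitin ligase genes PUB22 and PUB23, which damp pattern signalling, rose by 2.01 and 1.64 in PP2-A5oe and by 0.63 and 0.82 in pp2-a5. PUB24 rose by 1.17 in PP2-A5oe and 1.37 in pp2-a5, and PUB25, whose product marks BIK1 for degradation, by 0.89 in PP2-A5oe and 0.37 in pp2-a5.

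In the MAP kinase cascade 3 of 7 genes rose in each line and none fell. MPK3 had 282, 277 and 293 CPM in PP2-A5oe, 299, 254 and 280 in pp2-a5, and 148, 147 and 156 CPM in Col-0. Both lines lay well above Col-0 and overlapped each other, with a rise of 0.92 ± 0.07 in PP2-A5oe (adjusted p = 4.51e-13) and one of 0.89 ± 0.07 in pp2-a5 (adjusted p = 2.09e-12). MKK4 and MKK5, the kinases that activate MPK3, rose by 0.91 and 0.51 in PP2-A5oe and by 0.68 and 0.45 in pp2-a5.

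Of 9 calcium and G protein genes, 4 rose in PP2-A5oe and 6 in pp2-a5. CPK6, a calcium-dependent kinase, rose by 0.62 in PP2-A5oe and 0.72 in pp2-a5. XLG2, a G protein subunit that stabilises BIK1, rose by 0.52 in PP2-A5oe and 0.59 in pp2-a5, and AT1G11960 by 0.53 in PP2-A5oe and 0.38 in pp2-a5. The channel gene CNGC20 rose by 0.73 in pp2-a5 (adjusted p = 1.43e-05) and was at 0.24 in PP2-A5oe (adjusted p = 0.174). Neither of the 2 other tested oxidase genes was called. RBOHF, which works beside RBOHD, averaged 40.7 ± 0.958 CPM in PP2-A5oe, 39.98 ± 2.75 CPM in pp2-a5 and 34.2 ± 4.28 CPM in Col-0 (SD, n = 3 each), and RBOHC was at 0.53 in PP2-A5oe (adjusted p = 0.245). None of 4 peptide precursors was called. RALF23 was at 0.08 in PP2-A5oe and -0.12 in pp2-a5, and PROPEP6 at 0.12 in PP2-A5oe and -0.14 in pp2-a5.

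Of 10 pattern-induced output genes, 7 rose in each line and none fell. WRKY33 rose by 2.03 ± 0.07 in PP2-A5oe (adjusted p = 1.48e-21), and it rose by 1.63 ± 0.07 in pp2-a5 (adjusted p = 2.08e-18). WRKY53 rose by 2.77 ± 0.13 in PP2-A5oe and 3.14 ± 0.13 in pp2-a5, and CYP81F2, a cytochrome P450 of indole glucosinolate synthesis, by 1.68 in PP2-A5oe and 1.78 in pp2-a5. PHI-1, a gene induced by phosphate and by flagellin, had 40.3, 37.0 and 33.7 CPM in PP2-A5oe, 5.19, 5.79 and 4.22 in pp2-a5, and 2.10, 3.01 and 4.30 CPM in Col-0. PHI-1 rose by 3.58 ± 0.17 in PP2-A5oe (adjusted p = 5.16e-18), and it rose by 0.71 ± 0.25 in pp2-a5 (adjusted p = 0.0421).

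Output genes also differed between the lines, some in the direction of FRK1 and some in the opposite direction. In PP2-A5oe against pp2-a5, 4 were higher and 4 lower, where 7.21% of all loci were called higher and 5.45% lower. Output genes beyond the ones above were named after their values were seen. Lower in PP2-A5oe were NHL10 (-1.34 ± 0.23, adjusted p = 5.01e-05), AT1G26380 (-1.22 ± 0.16, adjusted p = 3.89e-07), MYB51 (-0.59 ± 0.10, adjusted p = 7.06e-05) and WRKY53 (-0.37 ± 0.09, adjusted p = 0.00421). NHL10, a flagellin-induced gene often measured beside FRK1, had 2.49, 2.88 and 3.98 CPM in PP2-A5oe, 7.46, 8.43 and 7.82 in pp2-a5, and 2.58, 1.51 and 3.17 CPM in Col-0. Only its pp2-a5 libraries stood apart. Higher in PP2-A5oe were PHI-1 (2.87 ± 0.15), WRKY22 (1.60 ± 0.11), ATL2 (1.38 ± 0.11) and WRKY33 (0.41 ± 0.07). Among these called genes WRKY33 and WRKY53 differed least between the lines, and both rose by more than that against Col-0 in each line. WRKY22 had 48.6, 40.7 and 43.4 CPM in PP2-A5oe, 12.7, 16.4 and 14.9 in pp2-a5, and 13.9, 12.6 and 12.3 CPM in Col-0, so that only PP2-A5oe stood apart.

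Markers of touch and wounding, and some markers of root cells, moved in the same libraries. Beside the counts that follow, 14.5% of all loci were called higher in PP2-A5oe and 12.3% in pp2-a5, each against Col-0. Of 10 tested touch and wound genes 9 rose in PP2-A5oe (median 2.94) and 6 in pp2-a5 (median 0.58). The count in pp2-a5 was 10 of the 11 then tested without Col-0 replicate 3. Summed over all 13 listed genes, as CPM of the unscaled library total, they reached 1132 to 1184 CPM in PP2-A5oe, 191 to 207 CPM in pp2-a5 and 127 to 145 CPM in Col-0. Of 10 root markers 4 could be tested. All 4 rose in PP2-A5oe (median 1.73) and 1 in pp2-a5, a call lost without Col-0 replicate 1 or pp2-a5 replicate 1 or 2. CASP1 had 16 to 21 counts per library in PP2-A5oe, 2 to 4 in Col-0 and 3 to 9 in pp2-a5. PRP1 had 11 to 15 in PP2-A5oe, 2 to 8 in Col-0 and 3 to 8 in pp2-a5. Both passed the count filter only through PP2-A5oe, so the filter favoured their rise there. LRX1 (1.57) and PRP3 (1.89) had enough counts in every group. The 10 together summed, on the same unscaled basis, to 32.6 to 40.3 CPM in PP2-A5oe, 13.7 to 17.6 CPM in pp2-a5 and 11.0 to 11.8 CPM in Col-0, and the root hair genes EXPA7 and EXPA18 had 0 to 9 counts in any library. Among root markers with too few counts to test, WER went the other way. Its mean was 0.971 CPM (TMM-scaled) in Col-0, 0.456 in PP2-A5oe and 0.487 in pp2-a5. CASP2 and TIP2;3 had higher means than Col-0 in PP2-A5oe and lower means in pp2-a5. EXPA7, EXPA18 and COBL9 had higher means than Col-0 in both lines. Neither of 2 tested flower markers was called. The part of these shifts in the pattern-signalling results was not tested.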

How the data were processed

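Polyadenylated RNA of 9 libraries was sequenced after oligo(dT) enrichment and random-hexamer priming, per the labels' protocols. The deposited table holds raw counts, made by the authors against TAIR10 per the submitters' processing notes. Aligner, counter and strand: not given in the sources used here. Counts of entries with the same locus were summed (294 loci, none of the 10 genes). Names, transcripts and promoters came from RefSeq TAIR10.1, and its coordinates are the ones printed.

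Loci were filtered with filterByExpr (minimum count 10, minimum total 15), which left 13975 holding 99.76% of counts, and fitted in edgeR 4.0.16 (R 4.3.3) with TMM scaling, a mean per group, robust quasi-likelihood dispersions and 6 residual degrees of freedom. Adjusted p-values are Benjamini-Hochberg over all loci. The fit was tested on simulated data. How replicates were grown is not stated, so p-values reflect only the spread between these samples. Floors cover counting error only.

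The genes and lists were chosen with earlier results of these data known. From each pathway list, up to 3 called genes with the smallest adjusted p in each line were named, or the 2 most abundant where none was called. As alternatives, the tests were rerun with upper-quartile and RLE scaling, in DESeq2 1.42.0 and voom (limma 3.58.1), unfiltered, with at least 10 CPM in 3 libraries, with fits of 2 groups, the replicate number as a block, entries kept separate, and removal of libraries. Tables and plots used pandas 2.3.3, numpy 2.4.6 and matplotlib 3.10.9 under Python 3.11.15. The PP2-A5 transcript itself was not analysed here. The upstream region of SOBIR1 is not reported here.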

Additional observations from a re-analysis of the deposited data

How the results depend on the processing

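Against Col-0, the calls of LYK5, SOBIR1 and RBOHD in both lines held in all 19 alternatives, and those of EFR in pp2-a5 and of LYK5 and FRK1 between the lines held wherever the gene was tested. The number of the 10 genes called changed as follows. In PP2-A5oe against Col-0 it was 6, and 3 to 6 when 1 library was left out, with 3 without PP2-A5oe replicate 1. In pp2-a5 against Col-0 it was 5, and 4 to 6 with 1 library left out, and 3 under the stricter filter, which removes EFR and FRK1 from the test. In PP2-A5oe against pp2-a5 it was 4, and 2 to 4 with 1 library left out, and 2 in DESeq2. Removal of Col-0 replicate 3 and PP2-A5oe replicate 2, the libraries with the highest mitochondrial share, ended the calls of EFR (adjusted p = 0.174) and BIK1 (0.0521) in PP2-A5oe and of SOBIR1 between the lines (0.0978). CERK1 in PP2-A5oe against Col-0, never called, turned to -0.0027 under upper-quartile scaling, -0.0058 without Col-0 replicate 2 and -0.037 without PP2-A5oe replicate 3, and was 0.11 without Col-0 replicate 3 and at most 0.14, without the 2 libraries just named. PEPR1 in PP2-A5oe was also lost under upper-quartile scaling (adjusted p = 0.117), in DESeq2 (0.125), without a filter (0.0967) and in the fit of 2 groups (0.0508). The causes were not tested. Over all loci, leaving out 1 library gave 2818 to 3675 calls in PP2-A5oe, 2255 to 3145 in pp2-a5 and 1342 to 2161 between the lines. Of 507 refits of single genes, 463 kept direction and call, 39 lost the call and 2 gained it.

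No sign was seen that the replicate numbers pair the libraries, though a weak pairing could be missed. For this check the mean log2 CPM of its own group was subtracted from each library, locus by locus. These deviations correlated at -0.18 to 0.06 between same-numbered libraries of 2 groups. Not every library's deviations correlated best with those of its own number. With the replicate block, 5 of the 10 genes were called in PP2-A5oe, 5 in pp2-a5 and 3 between the lines, without PEPR1 (adjusted p = 0.0712) and without SOBIR1 between the lines (0.0889). The block gave 3185, 2575 and 1571 calls over all loci in these comparisons. At these depths FRK1, EFR and BAK1 limit what can be read: a FRK1 value rests on 8 to 38 counts.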
